A study of Homo sapiens with 6 samples.

Results

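The genes described here are MYC and its partner MAX together with genes of ribosome production and of polyamine and pyrimidine synthesis, 46 in all. They were taken by symbol from a list of names, which was chosen with earlier results of these data known. All 46 symbols stood among the 55765 rows of the deposited count table. The cells were OCI-AML2, a human line established from acute myeloid leukaemia and, per the labels, grown as clones from single cells. One group received 100 nM MRT199665 for 48 h, a compound that the labels name as blocking the MARK kinases, and the other received vehicle for the same time. Each group held 3 libraries made from the 3′ ends of messenger RNA. All 6 libraries came from this line, with 1 dose and 1 time. Below, ± after a mean is the SD (n = 3 libraries per group) and ± after a log2 fold change, always MRT199665 over vehicle, is its SE. The comparison shows which of these transcripts differed in level between inhibitor and vehicle.

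MYC is a transcription factor that binds DNA as a pair with MAX, most strongly at the E-box sequence CACGTG. Among the genes it is best known to activate are those that build ribosomes. In the nucleolus RNA polymerase I copies the ribosomal RNA genes, small nucleolar ribonucleoproteins modify the transcript, and large sets of assembly factors fold, cut and export the small and the large subunit. MYC also activates ODC1, SRM and CAD, enzymes that make polyamines and pyrimidines for growing cells. MYC activity is a common feature of leukaemia cells and usually declines as myeloid cells mature.

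The promoters of 4 members are shown because they carry the E-box and belong to the members with the lowest p-values among those that do. They come from RefSeq on build GRCh38.p14, which is not the build of the count table, and run 5′ to 3′ on the gene's strand from 250 bases before to 50 bases after the annotated start. BYSL lies at chr6:41921249-41921548 on the plus strand, NOP14 at chr4:2963357-2963656 on the minus strand, DDX21 at chr10:68956397-68956696 on the plus strand and NOP2 at chr12:6568242-6568541 on the minus strand. The capitals mark the E-box.
BYSL: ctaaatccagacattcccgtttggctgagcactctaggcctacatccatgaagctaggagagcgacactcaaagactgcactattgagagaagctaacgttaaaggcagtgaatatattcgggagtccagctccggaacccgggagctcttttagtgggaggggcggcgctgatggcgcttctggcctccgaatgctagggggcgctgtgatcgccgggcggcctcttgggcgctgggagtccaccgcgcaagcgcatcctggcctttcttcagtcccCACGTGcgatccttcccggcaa
NOP14: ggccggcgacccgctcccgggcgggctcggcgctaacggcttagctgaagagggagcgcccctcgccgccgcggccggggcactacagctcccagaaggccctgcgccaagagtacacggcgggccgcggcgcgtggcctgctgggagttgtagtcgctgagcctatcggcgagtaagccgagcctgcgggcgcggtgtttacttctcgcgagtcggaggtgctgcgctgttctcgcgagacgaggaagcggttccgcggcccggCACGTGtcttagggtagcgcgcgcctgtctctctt
DDX21: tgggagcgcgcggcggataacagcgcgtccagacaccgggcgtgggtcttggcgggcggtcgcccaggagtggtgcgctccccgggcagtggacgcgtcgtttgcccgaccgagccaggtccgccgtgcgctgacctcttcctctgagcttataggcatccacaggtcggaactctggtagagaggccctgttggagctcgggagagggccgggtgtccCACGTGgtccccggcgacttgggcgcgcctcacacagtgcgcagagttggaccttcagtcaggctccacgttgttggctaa
NOP2: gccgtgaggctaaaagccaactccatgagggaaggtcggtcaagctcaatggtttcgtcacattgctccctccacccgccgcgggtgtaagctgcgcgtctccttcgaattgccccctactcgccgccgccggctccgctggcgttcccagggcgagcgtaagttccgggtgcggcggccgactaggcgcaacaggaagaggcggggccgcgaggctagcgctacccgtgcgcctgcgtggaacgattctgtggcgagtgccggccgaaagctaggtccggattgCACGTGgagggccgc

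The E-box begins at position 29 in BYSL, 16 in NOP14, -31 in DDX21 and 36 in NOP2, counted with 1 as the annotated start. CACGTG is its own reverse complement, so a search of 1 strand covers both, and each match also fits the looser pattern CANNTG. Of the 46 members 39 had a promoter in the RefSeq table, and 18 of these (46.2%) held the E-box in at least 1 listed promoter. The share was 8.77% among all 27305 genes of the table and 13.0% among the 8504 of 13053 tested genes found in it by symbol. The 20 matches in members lay between positions -199 and 36, and 18 of them were within 100 bases of the start. Members with the E-box were FBL, NOP10, GAR1, UTP20, WDR43, NOP14, RRP9, NAT10, DDX21, BYSL, LTV1, PNO1, PES1, NOP2, GNL3, MRTO4, ODC1 and SRM. Their median log2 fold change, MRT199665 over vehicle, was -0.19 with 15 of 18 negative. The 21 tested members whose listed promoters lacked these letters had a median of -0.21 with 18 negative, so the sequence feature did not divide the members by direction.

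**Figure D1:**
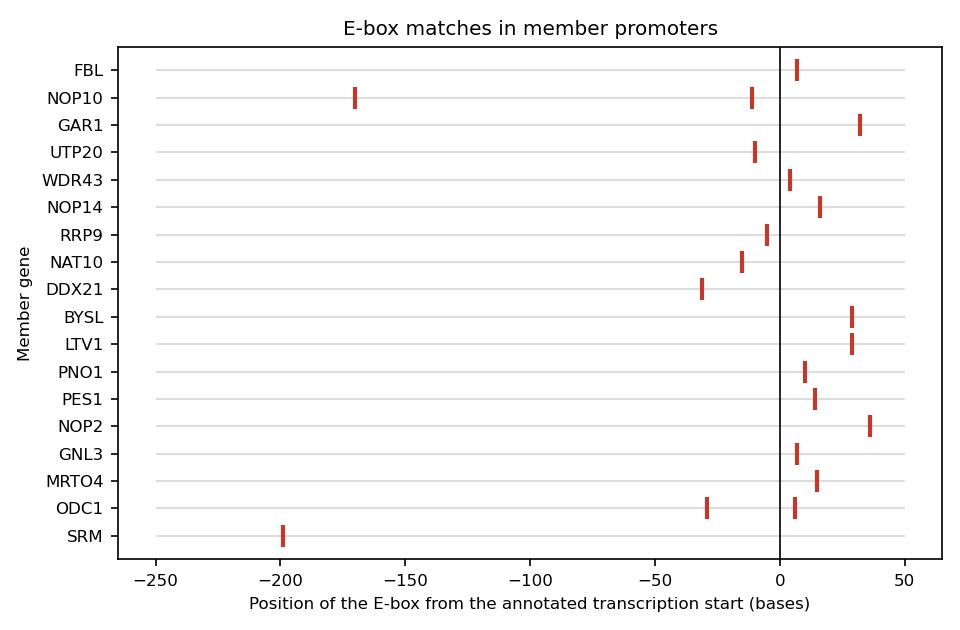
Position of each CACGTG match (red mark) from the annotated transcription start, in bases, in the promoters of the 18 members that held one; each grey line is the window from 250 bases before to 50 after the start. Of the 20 matches, 18 lie within 100 bases of the start.

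Total counts ranged from 5871097 to 14308650 in MRT199665 libraries and from 9517907 to 11994657 in vehicle libraries. MRT199665 replicate 2 had the lowest total. It also stood at one end of the first principal component (48.4), with vehicle replicate 2 at the other end (-36.8), and this component held 46.8% of the variance without dividing the groups. The 4 remaining libraries are those without MRT199665 replicate 2 and vehicle replicate 2. Log2 fold changes over them were computed for the tested members and for pathway genes named by a call or lowest p. They are given below where they moved a gene's value by more than 1.5 times or turned its sign. They were not computed for the markers or for MNT, MLXIP, E2F2, CCND2, NDRG1, GADD45A, CEBPD and ITGB1. The myeloid markers MPO, CD33, SPI1 and CSF3R were present, with the summed level of 8 myeloid markers between 349 and 379 CPM in MRT199665 libraries and between 273 and 302 CPM in vehicle libraries. CPM are counts per 1000000 of the library total, scaled by the TMM method. All MRT199665 libraries lay above all vehicle libraries in this sum, and its part in the results was not tested. Not every gene of the sum went this way. CD33, MPO, LYZ and CSF3R were higher without overlap, with log2 fold changes of 0.32, 0.47, 1.22 and 0.39. ANPEP was lower without overlap, with a log2 fold change of -0.93 ± 0.38. For SPI1 the groups overlapped, with a log2 fold change of 0.05 ± 0.14. The myeloid genes CD68 and CEBPA had a count of 0 in every library. The widely expressed genes CDK4 (1 to 5 counts per library) and FTH1 (0 or 1 count) were also nearly uncounted, so a count near 0 in this table does not show that a transcript was missing. The 7 fibroblast and epithelial markers summed to between 0.921 and 1.66 CPM with MRT199665 and between 0.587 and 1.54 CPM with vehicle. The 7 markers of T, NK and B cells summed to between 14.1 and 16.7 CPM with MRT199665 and between 12.8 and 14.7 CPM with vehicle. For erythroid and megakaryocyte markers the sums were 2.57 to 5.07 CPM with MRT199665 and 1.85 to 3.35 CPM with vehicle, with HBA1, HBB and PF4 at 0.

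None of the 45 members with enough counts to be tested passed the threshold, an adjusted p under 0.05 over all 13053 tested genes (edgeR quasi-likelihood test, Benjamini-Hochberg). The same threshold was passed upward by 0.85% and downward by 0.398% of all tested genes. DESeq2 and limma-voom also called no member. At an unadjusted p under 0.05 there were 5 members, all lower with MRT199665 (WDR12, HEATR1, BYSL, NOP14 and DDX21). That is 11.1% of the members, against 7.11% of all tested genes lower and 7.64% higher on that basis. The log2 fold change was negative for 36 of 45 members (80.0%), against 49.1% of all tested genes. The members' median was -0.19, a 1.14-fold lower level, against 0.0059 over all tested genes. In RNA pooled from many cells, fewer cells with a transcript and less of it in each cell cannot be told apart. The MRT199665 libraries lay wholly below the vehicle libraries for 10 members (22.2%) and wholly above them for 1, NOP2 (2.22%), while this was so for 10.8% and 11.4% of all tested genes. In the other 34 members the groups overlapped. Without MRT199665 replicate 2 and vehicle replicate 2 the median was -0.14 with 32 of 45 negative. The count of 5 became 2 with upper-quartile scaling, 11 without a low-count filter, 3 without MRT199665 replicate 2 and 2 without either vehicle replicate 2 or vehicle replicate 3. Without MRT199665 replicate 2 and vehicle replicate 2 together it was 4 (GAR1, HEATR1, MYC and NOB1), with only HEATR1 kept of the 5. Nothing in the labels says whether libraries of a group were separate cultures, so p-values measure only the spread between libraries.

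**Figure D2:**
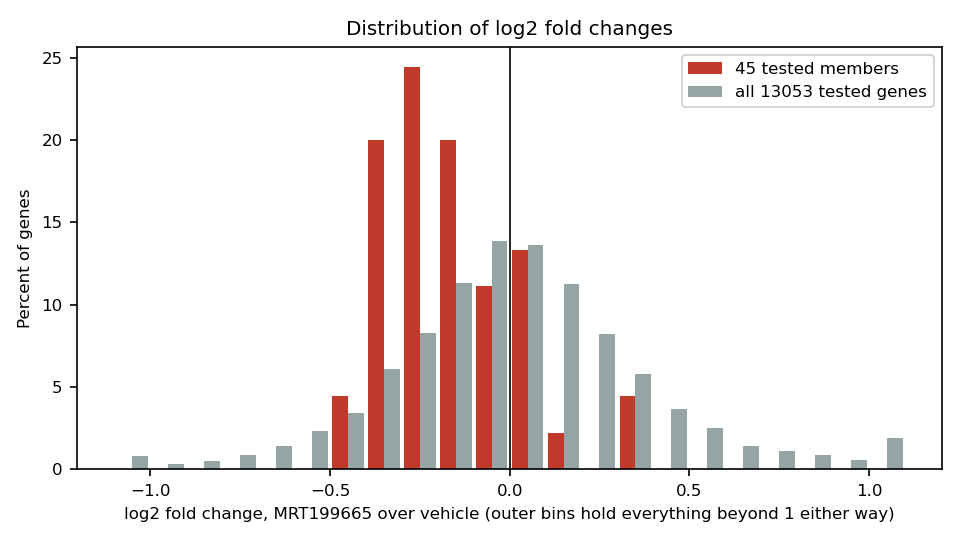
Percent of genes (vertical axis) in each interval of log2 fold change, MRT199665 over vehicle (horizontal axis), for the 45 tested members (red) and all 13053 tested genes (grey). The members gather left of 0, with a median of -0.19, and none lies beyond 1 in either direction.

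The fold between groups was mostly smaller than the range among libraries of a group. The fold between groups had a median of 1.15 and a maximum of 1.34 over the members. The ratio of the highest to the lowest library had a median of 1.30 within the MRT199665 group and 1.23 within the vehicle group. In 41 of 45 members the fold between groups was smaller than that ratio within the MRT199665 group, and in 30 it was smaller than the ratio within the vehicle group. The fold compares group levels, while the ratio spans the range of 3 libraries, so they are unlike measures. These counts were not made over all tested genes. The median pooled SD of log2 CPM within groups was 0.19 for members and 0.23 for all tested genes. For 44 members the 95% interval of the fold change lay within 2-fold in either direction, NOP10 being the exception, and for 25 it lay within 1.5-fold.

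**Figure D3:**
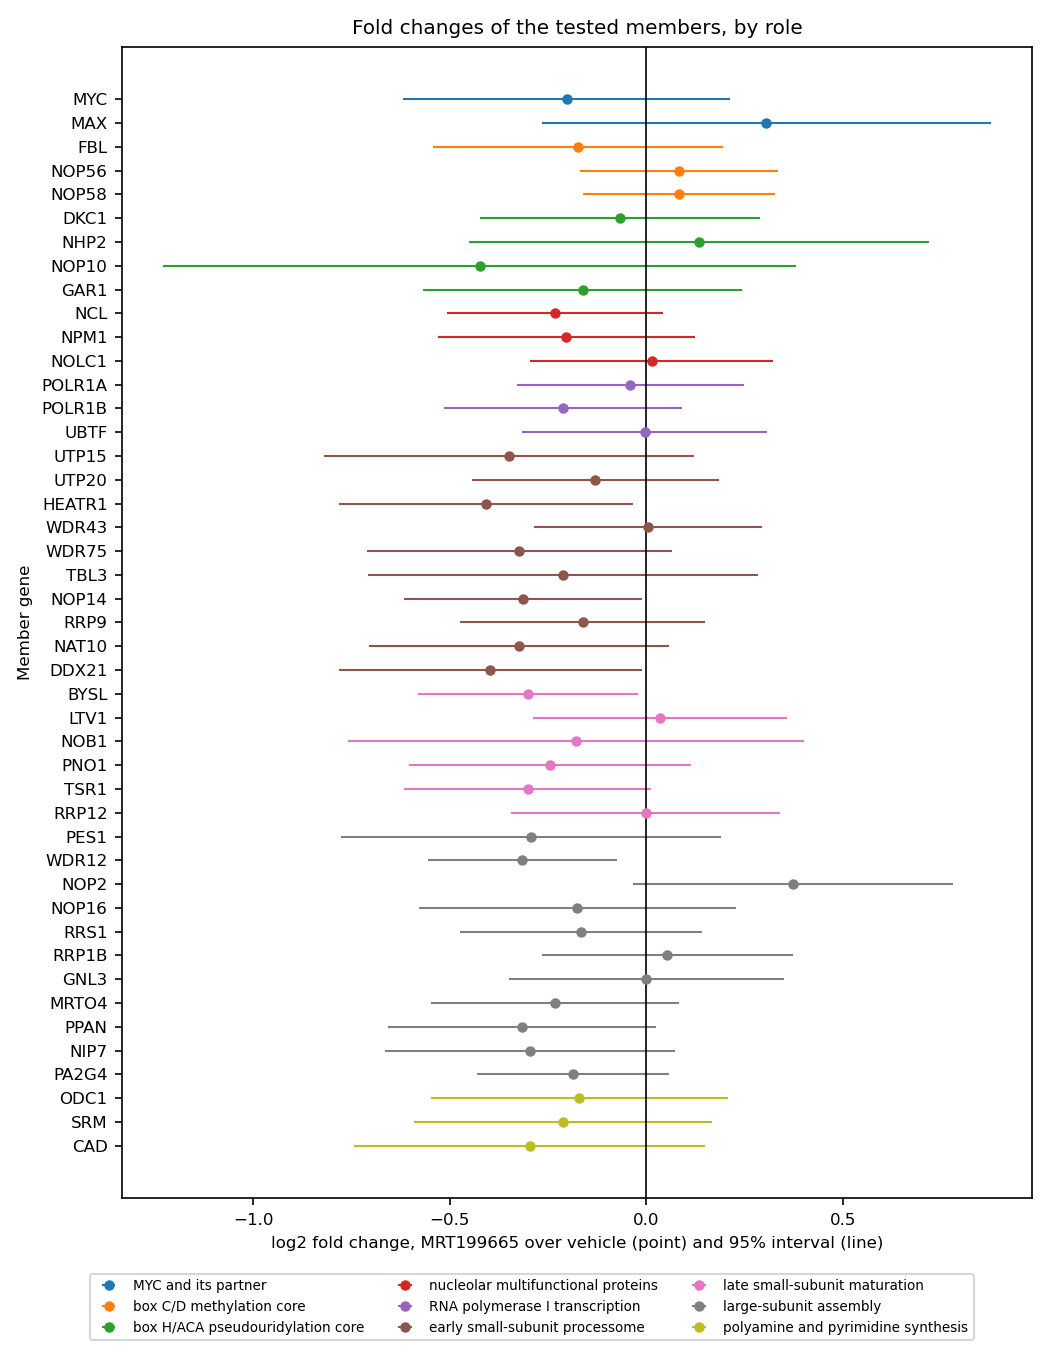
Log2 fold change, MRT199665 over vehicle (points), with its 95% interval (lines), for each of the 45 tested members, coloured by role. The intervals of 5 members lie wholly below 0 before adjustment for the number of genes tested, and those of the others include 0.

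MYC had between 133 and 256 counts in each library. It stood at 14.95, 22.5 and 15.9 CPM in MRT199665 replicates 1, 2 and 3, and at 21.5, 17.7 and 21.5 CPM in vehicle replicates 1, 2 and 3. The highest value belonged to MRT199665 replicate 2 and the groups overlapped. The mean was 17.8 ± 4.11 CPM for MRT199665 and 20.2 ± 2.20 CPM for vehicle. The log2 fold change was -0.20 ± 0.18 (adjusted p = 0.667), with a 95% interval of -0.62 to 0.21. With 1 library left out it lay between -0.10, without MRT199665 replicate 1 (adjusted p = 0.863), and -0.39, without MRT199665 replicate 2 (adjusted p = 0.324). Over the 4 remaining libraries it was -0.48 (adjusted p = 0.201, unadjusted p = 0.0125). The unadjusted p without MRT199665 replicate 2 alone was 0.0331.

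MAX, the obligate partner of MYC, stood at 84.3, 138 and 119 CPM in MRT199665 libraries and at 126, 67.3 and 82.3 CPM in vehicle libraries. The MRT199665 mean was the higher, while vehicle replicate 1 exceeded 2 of the 3 MRT199665 libraries. Its log2 fold change of 0.31 ± 0.25 (adjusted p = 0.632) became 0.60 (adjusted p = 0.218) without vehicle replicate 1, 0.11 (adjusted p = 0.901) without vehicle replicate 2 and -0.04 over the 4 remaining libraries. The end of MAX overlaps the oppositely oriented gene FNTB in GENCODE release 29, and reads of such pairs cannot be told apart here because the strand setting is not given in the sources used.

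**Figure D4:**
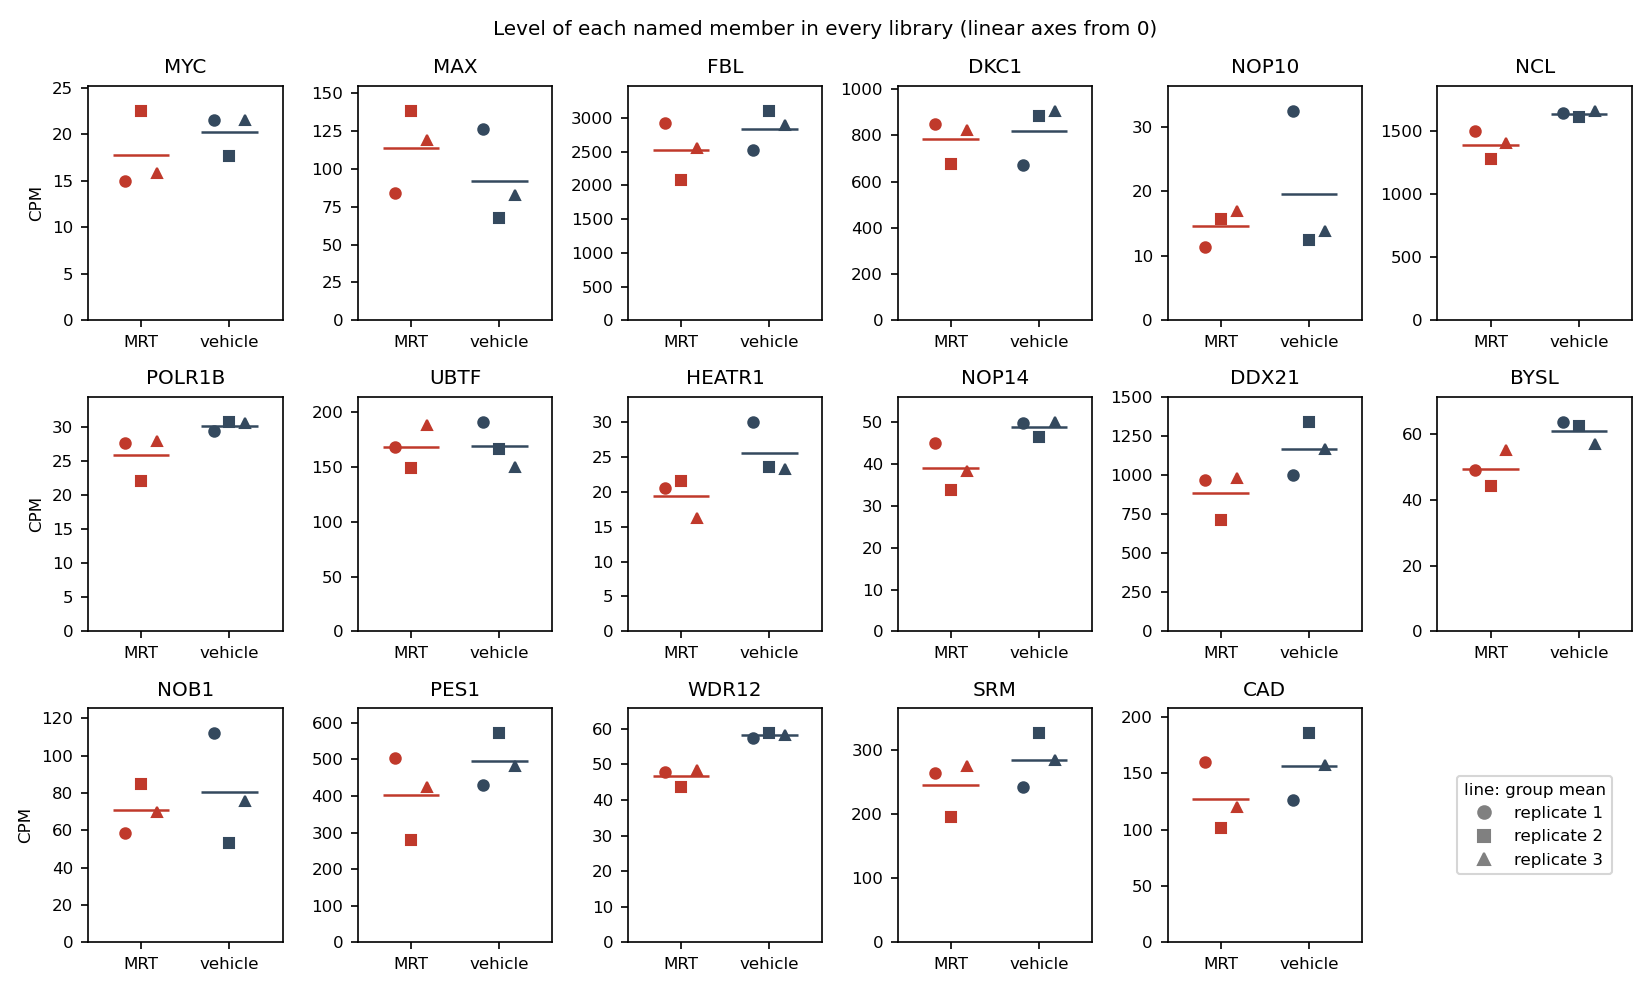
Level of 17 members in every library, in CPM on linear axes that start at 0, with MRT199665 (red) left of vehicle (dark blue); symbols mark the replicate and lines the group mean. WDR12 and NCL lie lower in all 3 MRT199665 libraries than in any vehicle library, while MYC, FBL and PES1 overlap between the groups.

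The proteins that modify ribosomal RNA showed no common direction. FBL, the methyltransferase of the box C/D particles, which add methyl groups to ribose, stood at 2923, 2073 and 2562 CPM in MRT199665 libraries and at 2524, 3101 and 2900 CPM in vehicle libraries. The lowest value was that of MRT199665 replicate 2 and the highest that of vehicle replicate 2, and the groups overlapped (log2 fold change -0.17 ± 0.16, adjusted p = 0.678). Without both of these libraries the value for FBL was 0.01. NOP56 and NOP58, the scaffold proteins of the same particles, had log2 fold changes of 0.08 each, with 95% intervals of -0.17 to 0.33 for NOP56 and -0.16 to 0.33 for NOP58. NOP56 averaged 260 ± 12.6 CPM under MRT199665 and 246 ± 16.7 CPM under vehicle.

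Of the box H/ACA particles, which convert uridine to pseudouridine, DKC1 is the catalytic subunit. DKC1 stood at 849, 675 and 822 CPM in MRT199665 libraries and at 672, 883 and 904 CPM in vehicle libraries, and its log2 fold change was -0.07 ± 0.16 (adjusted p = 0.896). Each group had 1 library well below its other ones, and the groups overlapped. NOP10, a small subunit of the same particles, stood at 11.4, 15.7 and 17.0 CPM with MRT199665 and at 32.5, 12.4 and 13.9 CPM with vehicle. Vehicle replicate 1 alone was high, and the log2 fold change of -0.42 ± 0.35 (adjusted p = 0.639) became 0.15 without it. The remaining subunits GAR1 and NHP2 had log2 fold changes of -0.16 and 0.13, and NHP2 was counted at only 35 to 48 reads per library. Over the 4 remaining libraries DKC1 was at 0.08, NOP10 at -0.72, GAR1 at -0.42 and NHP2 at -0.10.

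Among abundant nucleolar proteins, NCL (nucleolin), which binds nascent ribosomal RNA, stood at 1499, 1275 and 1405 CPM with MRT199665 and at 1645, 1607 and 1658 CPM with vehicle. All MRT199665 libraries lay below all vehicle libraries, and the log2 fold change was -0.23 ± 0.12 (adjusted p = 0.420). NPM1, the nucleolar chaperone that is often mutated in acute myeloid leukaemia, averaged 866 ± 81.7 CPM under MRT199665 and 997 ± 144 CPM under vehicle, with overlapping groups and a log2 fold change of -0.20 ± 0.14. NOLC1, a chaperone of the modifying particles, was at 0.01 ± 0.14 and at -0.15 over the 4 remaining libraries.

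RNA polymerase I was represented by POLR1A and POLR1B, its largest subunits, and by UBTF, the factor that opens ribosomal RNA genes for it. POLR1B stood at 27.6, 22.1 and 28.0 CPM in MRT199665 libraries and at 29.4, 30.7 and 30.5 CPM in vehicle libraries. The groups did not overlap, although MRT199665 replicates 1 and 3 lay close to the vehicle values (log2 fold change -0.21 ± 0.13, adjusted p = 0.514, or -0.11 without MRT199665 replicate 2 and vehicle replicate 2). UBTF was at 168, 149 and 188 CPM with MRT199665 and at 191, 166 and 150 CPM with vehicle. The log2 fold change of UBTF was -0.0044 ± 0.14, with a 95% interval of -0.32 to 0.31, and POLR1A was at -0.04 ± 0.13. Over the 4 remaining libraries UBTF was at 0.06 and POLR1A at 0.03.

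The early small-subunit processome, the assembly that forms on the nascent transcript, held 3 of the 5 members with an unadjusted p under 0.05. These are 30% of its 10 members, against 7.11% of all tested genes and 4.88% of 41 further small-subunit factors lower on that basis. This was the largest such share of any role, with 16.7% in late small-subunit maturation, 9.09% in large-subunit assembly and 0% in the rest. Of the 3 only HEATR1 stayed under 0.05 over the 4 remaining libraries. The median over the 10 was -0.32 on the log2 scale and -0.18 over the 4 remaining libraries, with 9 negative either way. In 4 of the 10 (40%) the MRT199665 libraries lay wholly below the vehicle libraries, against 10.8% of all tested genes. Among those 41 factors this was so for 7.32%. HEATR1, a subunit required for ribosomal RNA transcription and early cutting, stood at 20.5, 21.5 and 16.2 CPM with MRT199665 and at 29.9, 23.6 and 23.2 CPM with vehicle. All MRT199665 libraries lay below all vehicle libraries, and the log2 fold change was -0.41 ± 0.16 (adjusted p = 0.297). The end of HEATR1 overlaps LGALS8 on the opposite strand and another annotated gene on its own strand. NOP14, a core protein of the same assembly, stood at 45.0, 33.8 and 38.3 CPM with MRT199665 and at 49.8, 46.4 and 49.98 CPM with vehicle. Its groups were also apart, at -0.31 ± 0.13 (adjusted p = 0.322), and its end overlaps the antisense gene NOP14-AS1.

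DDX21, an RNA helicase of the nucleolus, stood at 967, 712 and 985 CPM in MRT199665 libraries and at 1000.1, 1341 and 1168 CPM in vehicle libraries. The groups did not overlap, but MRT199665 replicate 3 and vehicle replicate 1 differed by little. The log2 fold change was -0.40 ± 0.17 (adjusted p = 0.326), and over the 4 remaining libraries it was -0.15. NAT10, which acetylates cytidines of the small-subunit RNA, averaged 199 ± 45.1 CPM under MRT199665 and 249.8 ± 6.09 CPM under vehicle. In MRT199665 replicates 1, 2 and 3 NAT10 stood at 225, 147 and 226 CPM, so replicate 2 was far below the other ones. NAT10 was at -0.32 ± 0.17 (adjusted p = 0.421) and became -0.13 over the 4 remaining libraries. The transcription-linked subunits UTP15 and WDR75 had log2 fold changes of -0.35 ± 0.21 and -0.32 ± 0.17, while WDR43, of the same subcomplex, was at 0.0050 ± 0.13. UTP20, TBL3 and RRP9, the last a protein of the U3 particle, lay between -0.21 and -0.13. Over the 4 remaining libraries WDR75 was at -0.14, WDR43 at 0.12 and TBL3 at -0.35.

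Late steps of small-subunit maturation had 6 members, with a median log2 fold change of -0.21. BYSL, which stays with the precursor until late in its maturation, stood at 48.9, 44.1 and 54.9 CPM with MRT199665 and at 63.5, 62.5 and 56.8 CPM with vehicle. The groups were apart by less than 2 CPM at their nearest values (log2 fold change -0.30 ± 0.12, adjusted p = 0.302). NOB1, the nuclease that makes the final cut of the small-subunit RNA, stood at 58.4, 85.0 and 70.0 CPM with MRT199665 and at 112, 53.2 and 75.6 CPM with vehicle. The vehicle libraries held both the highest and the lowest value of NOB1, and its log2 fold change of -0.18 ± 0.26 (adjusted p = 0.806) became -0.55 (adjusted p = 0.240) without MRT199665 replicate 2 and vehicle replicate 2. PNO1, the partner of NOB1, and TSR1, a GTPase-like assembly factor, were at -0.24 ± 0.16 and -0.30 ± 0.14. LTV1 and RRP12, both linked to export of the small subunit, were at 0.03 ± 0.14 and -0.0024 ± 0.15. Over the 4 remaining libraries TSR1 was at -0.15, LTV1 at 0.12 and RRP12 at 0.21.

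Large-subunit assembly had 12 members, of which 11 were tested. PES1, BOP1 and WDR12 form 1 complex that is needed for processing of the large-subunit RNA. WDR12 had the lowest p of all members and stood at 47.7, 43.8 and 48.4 CPM with MRT199665 and at 57.4, 58.8 and 58.3 CPM with vehicle. The 3 vehicle values lay close together and above every MRT199665 value. Its log2 fold change of -0.32 ± 0.11 (adjusted p = 0.210) was a 1.25-fold lower level and lay between -0.36 and -0.27 over the 16 alternatives, none of which called it. PES1 stood at 504, 280 and 425 CPM with MRT199665 and at 429, 572 and 483 CPM with vehicle. MRT199665 replicate 2 was far below the rest, the groups overlapped, and the log2 fold change of -0.29 ± 0.21 (adjusted p = 0.581) became 0.02 without MRT199665 replicate 2 and vehicle replicate 2. BOP1 could not be tested, with counts of 2, 0 and 5 in MRT199665 libraries and 1, 6 and 2 in vehicle libraries.

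NOP2, a methyltransferase of the large-subunit RNA, went the other way from most members. It stood at 17.5, 22.6 and 17.4 CPM with MRT199665 and at 17.0, 11.9 and 15.2 CPM with vehicle, and the log2 fold change was 0.37 ± 0.18 (adjusted p = 0.382). The groups were apart by less than 1 CPM at their nearest values, and without MRT199665 replicate 2 and vehicle replicate 2 the log2 fold change of NOP2 was 0.11. Another annotated gene overlaps the end of NOP2 on the same strand. The assembly factors PPAN, NIP7, MRTO4, NOP16 and RRS1 and the ribosome-associated protein PA2G4 had log2 fold changes between -0.32 and -0.17, and for NIP7 and PA2G4 the groups did not overlap. The GTPase GNL3 (nucleostemin) was at -0.00073 ± 0.15 and RRP1B at 0.05 ± 0.14. Over the 4 remaining libraries PPAN was at -0.14, MRTO4 at -0.07, NOP16 at -0.0092, RRS1 at -0.08, GNL3 at -0.03 and RRP1B at -0.15.

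The enzymes ODC1, SRM and CAD, which make putrescine, spermidine and the first intermediates of pyrimidines, had overlapping groups. CAD stood at 160, 101 and 120 CPM in MRT199665 libraries and at 126, 185 and 157 CPM in vehicle libraries. SRM stood at 263, 196 and 275 CPM with MRT199665 and at 242, 326 and 284 CPM with vehicle. For both genes, MRT199665 replicate 2 was the lowest and vehicle replicate 2 the highest library. The log2 fold change was -0.30 ± 0.20 for CAD (adjusted p = 0.537), -0.21 ± 0.17 for SRM (adjusted p = 0.615) and -0.17 ± 0.17 for ODC1 (adjusted p = 0.695). Without MRT199665 replicate 2 and vehicle replicate 2, CAD was at -0.02, SRM at 0.03 and ODC1 at 0.01.

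The same libraries were extreme across the list. MRT199665 replicate 2 had the lowest value of 22 of the 45 members (48.9%), against 23.9% of all tested genes. Vehicle replicate 2 had the highest value of 15 members (33.3%), against 21.7% of all tested genes. The members' median log2 CPM, centred per gene, was -0.01, -0.21 and -0.02 in MRT199665 replicates 1, 2 and 3, and 0.07, 0.08 and 0.11 in vehicle replicates 1, 2 and 3. The MRT199665 libraries were thus the lower 3, with replicates 1 and 3 close to 0. MYC and MAX did not share this order, since both were highest in MRT199665 replicate 2. MRT199665 replicate 2 had the fewest counts, and MRT199665 replicates 1 and 3 had the most. The part of count depth in these medians was not tested.

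**Figure D5:**
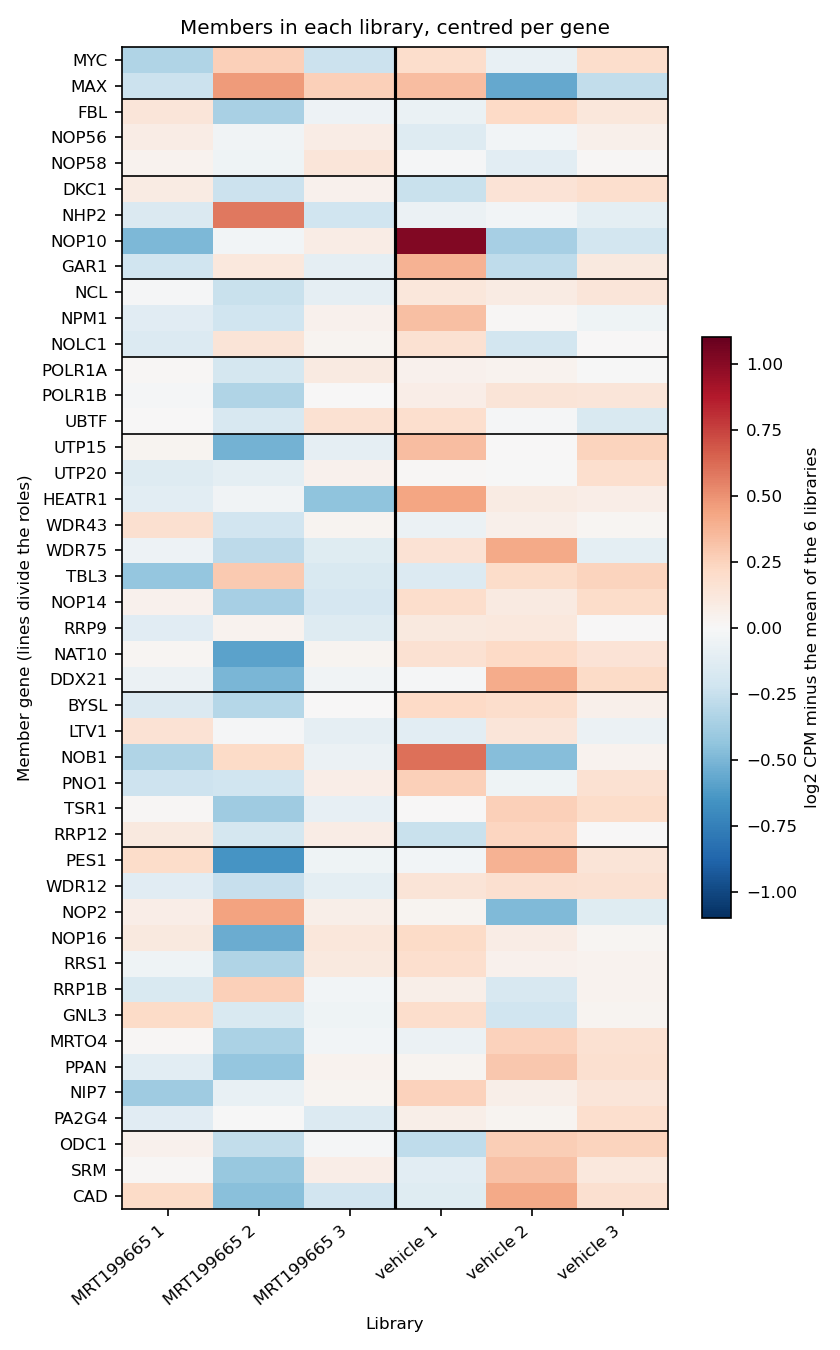
Log2 CPM of each tested member (rows, grouped by role) in each library (columns, MRT199665 left of the dark line), minus the gene's mean over the 6 libraries. MRT199665 replicate 2 is the lowest library for 22 of 45 members, and MYC and MAX are both highest there.

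Other genes of the same pathways were read from lists made by function, each with none of the 46 members. Over all tested genes, 7.64% were higher and 7.11% lower at an unadjusted p under 0.05. DESeq2 called 347 of 28230 genes with a count, and limma-voom called 157 of 13053 genes. None of the 20 tested genes of the MYC and MAX network was called (3 higher and 1 lower at an unadjusted p under 0.05, DESeq2 1, limma-voom 0). MXI1, which competes with MYC for MAX, had the lowest p there, averaging 161 ± 19.5 CPM under MRT199665 and 252 ± 42.8 CPM under vehicle. Its log2 fold change was -0.65 ± 0.16 (adjusted p = 0.102), and DESeq2 and the fit without a low-count filter called it, as did the fit without vehicle replicate 1. MXD4 and MNT, further competitors, and MLXIP, of the related MLX branch, were the 3 higher ones, at 0.43 ± 0.16, 0.41 ± 0.15 and 0.32 ± 0.12. Among 15 other RNA polymerase I genes none was called (1 lower at an unadjusted p under 0.05, DESeq2 1, limma-voom 0), and their median was -0.0063. The polymerase subunit gene POLR1H, listed under its older symbol ZNRD1, was at -0.83 ± 0.21 (adjusted p = 0.105) and was called by DESeq2 and without a low-count filter. TAF1C, a subunit of the polymerase's initiation factor, was at 0.41 ± 0.28, between 0.15 and 0.76 with 1 library left out, and at 0.04 over the 4 remaining libraries.

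Of 41 further small-subunit factors none was called, also not by DESeq2 or limma-voom. At an unadjusted p under 0.05, 2 of them were lower (4.88%, against 7.11% of all tested genes). Their median was -0.07, with 28 negative (68.3%, against 49.1% of all tested genes) and 3 lower without overlap (7.32%, against 10.8%). UTP11 and DDX10 had the lowest p, at -0.42 ± 0.15 and -0.37 ± 0.14. Of 45 further large-subunit factors none was called either (DESeq2 1, limma-voom 0). At an unadjusted p under 0.05, 6 of them were lower (13.3%, against 7.11% of all tested genes). Their median was -0.11, with 32 negative (71.1%, against 49.1% of all tested genes) and 10 lower without overlap (22.2%, against 10.8%). NMD3, the export adaptor of the large subunit, stood at 223, 214 and 225 CPM in MRT199665 libraries and at 306, 311 and 289 CPM in vehicle libraries. The groups were far apart relative to their spread, at -0.45 ± 0.10 (adjusted p = 0.0895), and DESeq2 called NMD3. RPF2, which brings the 5S particle to the large subunit, was at -0.46 ± 0.12 (adjusted p = 0.134).

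The 22 other genes of polyamine and nucleotide synthesis had a median of -0.14, and none was called, also not by DESeq2 or limma-voom. At an unadjusted p under 0.05, 1 of them was lower (4.55%, against 7.11% of all tested genes). ADSL, an enzyme of purine synthesis, and SAT1, which breaks polyamines down, were at -0.32 ± 0.14 and -0.36 ± 0.16, and ADSL was at -0.14 over the 4 remaining libraries. Of 38 tested genes known to be induced by MYC none was called (DESeq2 1, limma-voom 0), and the median was -0.12. At an unadjusted p under 0.05, 7 were lower (18.4%, against 7.11% of all tested genes). On the same basis 2 were higher, as were 7.64% of all tested genes. SLC7A5, an importer of large neutral amino acids, stood at 514, 374 and 571 CPM with MRT199665 and at 796, 821 and 798 CPM with vehicle. Its log2 fold change was -0.73 ± 0.16 (adjusted p = 0.0834), and it was called by DESeq2 and without a low-count filter. All MRT199665 libraries lay below all vehicle libraries, with replicate 2 the lowest. HSPE1, a mitochondrial co-chaperone, was at -0.47 ± 0.13 (adjusted p = 0.135). The 2 higher ones were E2F2, a regulator of replication genes, at 0.61 ± 0.17 and the cyclin CCND2 at 0.70 ± 0.26.

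Among 12 tested genes known to be repressed by MYC, 1 rose and none fell at the adjusted threshold, and the median was -0.19. Over all tested genes, 0.85% rose and 0.398% fell at that threshold. NDRG2, a member of a family named for its repression by MYCN, stood at 117, 132 and 142 CPM in MRT199665 libraries and at 84.9, 76.7 and 69.9 CPM in vehicle libraries. It was 1.69-fold higher with MRT199665 (log2 fold change 0.76 ± 0.12, adjusted p = 0.0270). DESeq2 and limma-voom also called NDRG2, but the call ended without any 1 of MRT199665 replicate 1 (adjusted p = 0.0645), 2 (0.0648) or 3 (0.182), vehicle replicate 2 (0.0919) or vehicle replicate 3 (0.202), and without MRT199665 replicate 2 and vehicle replicate 2 together (0.0819). All 3 MRT199665 libraries lay above all vehicle libraries. NDRG1, the other tested gene of this family in the list, averaged 722 ± 242 CPM under MRT199665 and 770 ± 230 CPM under vehicle. Its groups overlapped, with a log2 fold change of -0.09 ± 0.27 (adjusted p = 0.922). The other genes of this list with an unadjusted p under 0.05 were lower, namely the damage-response gene GADD45A at -0.41 ± 0.17, the transcription factor CEBPD at -0.39 ± 0.14 and the integrin subunit ITGB1 at -0.57 ± 0.17. These 3 are 25% of the 12 tested genes, against 7.11% of all tested genes lower on that basis.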

How the data were processed

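RNA from 6 libraries of OCI-AML2 was measured by 3′ messenger RNA sequencing with a Lexogen kit, per the labels. The authors deposited whole-number counts per gene symbol that were not normalized. STAR 2.4, HTSeq 0.6.1, DESeq2 and build hg19 are named in the submitters' processing notes. The annotation, the strand setting and any read filters are not given in the sources used here. In members, counting is uncertain for 17 whose last 500 bases overlap another gene in GENCODE release 29.

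Counts were fitted with edgeR 4.0.16 in R 4.3.3 (quasi-likelihood test, TMM scaling, group as the only term, two-sided). Genes had to pass filterByExpr (count of 10, total of 15), and p-values were adjusted over all 13053 tested genes by Benjamini-Hochberg, with calls at 0.05. The SE was the log2 fold change divided by the square root of F, and 95% intervals used the t distribution. Centred log2 CPM used a prior count of 2. Counts were not divided by length, so levels of different genes are not comparable. A count of 3 corresponded to 0.213 to 0.507 CPM in MRT199665 libraries and 0.252 to 0.305 CPM in vehicle libraries. The fit was tested on simulated data whose changes were larger than those of any member, so that test does not bear on changes of the members' size.

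Members and lists were chosen with earlier results of these data known. Values in every library are given for MYC, MAX, members with an unadjusted p under 0.05 and, in each role, the member with the lowest p and that with the highest mean. NAT10, NOP2, NMD3, SLC7A5 and NDRG2 were given in full after their values were seen. FTH1, CDK4, MNT, MLXIP, E2F2, CCND2, NDRG1, GADD45A, CEBPD and ITGB1 were also named after their values were seen. From each pathway list the called genes, or else the 2 with the lowest p, are named. Alternatives were other scalings and filters, DESeq2 1.42.0, limma-voom (limma 3.58.1), edgeR's newer quasi-dispersion, the replicate number as a block, each library left out, and both ends of the first component left out.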

Additional observations from a re-analysis of the deposited data

How the results depend on the processing

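No member was called under any of 16 alternatives (720 values, lowest adjusted p = 0.163, for WDR12). The members' median log2 fold change kept its sign throughout and lay between -0.21 and -0.13 when 1 library was left out. MYC kept a negative value throughout (adjusted p between 0.201 and 0.887). The number of genes called among all tested, 163, became 644 without a low-count filter, 347 with DESeq2, which started from all genes with a count, and 49 to 133 when 1 library was left out. The count of 5 members lower at an unadjusted p under 0.05 became 2 with upper-quartile scaling, 11 without a low-count filter and 2 to 6 when 1 library was left out. Without vehicle replicate 1, 6 members were lower and 2 were higher on that basis. With the replicate number as a block, 12 genes were called and 0 members were lower at an unadjusted p under 0.05. The labels do not say that the numbers pair libraries, and the correlations of same-numbered deviations were -0.55, -0.47 and 0.02. NDRG2 was not called under the block (adjusted p = 0.308) or without both ends of the first component (0.0819). The cause of these changes was not tested. Of 45 members 19 changed sign under at least 1 alternative, in 53 of the 720 values. The values after the change were 0.0095 for UBTF, 0.0098 for RRP12 and 0.015 for GNL3 with upper-quartile scaling, -0.0031 for NOLC1 and -0.011 for WDR43 with total counts, -0.011 for NOLC1 and -0.016 for WDR43 without a low-count filter, and -0.0037 for WDR43 with a minimum count of 30. They were -0.0026 for NOLC1 and -0.0081 for WDR43 with DESeq2, -0.0054 for WDR43, 0.011 for RRP12 and 0.0094 for GNL3 with limma-voom, and -0.0036 for WDR43 and 0.0042 for RRP12 with the replicate block. Without both ends of the first component they were -0.039 for MAX, 0.012 for FBL, 0.081 for DKC1, -0.10 for NHP2, -0.15 for NOLC1, 0.035 for POLR1A, 0.060 for UBTF, 0.21 for RRP12, 0.024 for PES1, -0.15 for RRP1B, 0.0097 for ODC1 and 0.033 for SRM. With 1 library left out the ranges were -0.089 to 0.10 for WDR43, -0.046 to 0.10 for LTV1, -0.19 to 0.027 for DKC1, -0.12 to 0.27 for NHP2, -0.088 to 0.10 for NOLC1, -0.12 to 0.031 for POLR1A, -0.11 to 0.092 for UBTF, -0.12 to 0.12 for RRP12, -0.30 to 0.0082 for NOP16, -0.074 to 0.14 for RRP1B, -0.12 to 0.10 for GNL3, -0.68 to 0.15 for NOP10, -0.33 to 0.0054 for GAR1 and -0.42 to 0.14 for NOB1. At 3 libraries per group, no member passed the adjusted threshold. The fold between groups was smaller than the ratio of highest to lowest library within the MRT199665 group in 41 of 45 members. It was smaller than that ratio within the vehicle group in 30. WDR12 was among the exceptions, with a fold of 1.25 against ratios of 1.11 within MRT199665 and 1.02 within vehicle. Whether changes of the members' size could be detected with 3 libraries per group was not tested.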
